A study of Pongo abelii with 8 samples.

Results

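The matrix metalloproteinases (MMPs) and their tissue inhibitors (TIMPs) were examined in skin fibroblasts of Sumatran orangutans and in induced pluripotent stem cells (iPSCs) made from them. The genes were MMP1, MMP2, MMP3, MMP9, MMP10 and MMP14, with TIMP1, TIMP2, TIMP3 and TIMP4. Every probe set whose annotation gave exactly 1 gene symbol, that of 1 of these genes, was taken. This gave 16 of the 22277 probe sets on the array, 9 for the 6 MMP genes and 7 for the 4 TIMP genes. MMP14 and TIMP3 had 4 probe sets each and the other 8 genes had 1 each.

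RNA of 8 cultures was hybridised to human Affymetrix arrays, 1 array per culture. The iPSC group had 6 arrays, of colonies 1 to 3 of donor KB10973, a male aged 29 years, and colonies 1 to 3 of donor KB10460, a female aged 43 years. The fibroblast group had 2 arrays, 1 dermal culture of KB10973 and 1 of KB10460, each the culture that was reprogrammed. All colonies carried retroviruses for human OCT4, SOX2, KLF4 and c-MYC, were exposed to valproic acid during reprogramming and were grown on mouse embryonic feeder cells, while the fibroblasts carried no transgene. The sources used here do not say whether feeder cells were removed before the RNA was taken. The fibroblasts were detached with trypsin, and the colonies with collagenase IV and by hand. The labels give serum medium for the fibroblasts and serum replacement medium for the iPSCs, whereas the series description gives serum replacement for both, so medium and cell type cannot be told apart. Colonies of a donor come from 1 animal, so the p-values rest on how far colonies and cultures of 2 animals lay apart.

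MMPs are zinc-dependent proteases that are made as inactive proenzymes and cut the proteins of the extracellular matrix. Collagenases such as MMP1 open fibrillar collagen, stromelysins such as MMP3 and MMP10 cut proteoglycans and fibronectin and can activate other proenzymes, and the gelatinases MMP2 and MMP9 degrade denatured and basement membrane collagens. MMP14 is anchored in the cell membrane. The TIMPs bind the active site of MMPs and block it, and dermal fibroblasts are a classical source of both families during the remodelling of skin.

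The cultures showed the markers of their labels, with exceptions. All 6 measured pluripotency markers were higher in iPSCs. POU5F1 (OCT4), TDGF1 and ZFP42 were also listed, but had no probe set annotated with that symbol alone and were left out. Of 12 fibroblast markers 11 were lower. The exception was THY1, higher in iPSCs by 2.79 on the log2 scale. The mean level of the fibroblast list was 4.46 to 4.88 in iPSC arrays and 8.96 to 9.42 in fibroblast arrays. Of 8 markers of early differentiation, AFP and GATA6 were higher in iPSCs and none was lower. Of 3 measured macrophage markers 2 were lower in iPSCs, and CD68 was left out for the same reason as POU5F1. Of 4 endothelial markers 1 was lower (PECAM1) and 1 was higher (TEK), and 0 of 4 keratinocyte markers were called, the nearest being KRT10 at -0.26 (adjusted p = 0.0715, limma). Array medians were 3.74 to 3.82. Values close to these medians or below them may be background, where folds are understated, and the deposited table has no detection calls.

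Of the 16 MMP and TIMP probe sets, 14 were lower in iPSCs than in fibroblasts, 0 were higher and 2 did not pass the test. A probe set was called at a fold change over 1.5 and an adjusted p under 0.05 in limma, with the adjustment made over all 22277 probe sets. Over the whole array 21.8% of probe sets were called, 9.6% lower and 12.2% higher. The called members were 8 of 9 MMP probe sets and 6 of 7 TIMP probe sets, and they covered every probe set of 8 of the 10 genes. Their differences, iPSC minus fibroblast, ran from -9.67 to -0.88 on the log2 scale, and 7 of the falls exceeded 4-fold. For all 14 each of the 6 colonies lay below both fibroblast cultures, a pattern found at 18.2% of all probe sets. The median difference was -1.60 over the 16 members and -0.01 over all probe sets. Only MMP9 and TIMP4 had positive differences, with unadjusted p of 0.203 and 0.329 in limma. In these bulk cultures fewer cells of a type and less RNA per cell cannot be told apart.

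**Figure D1:**
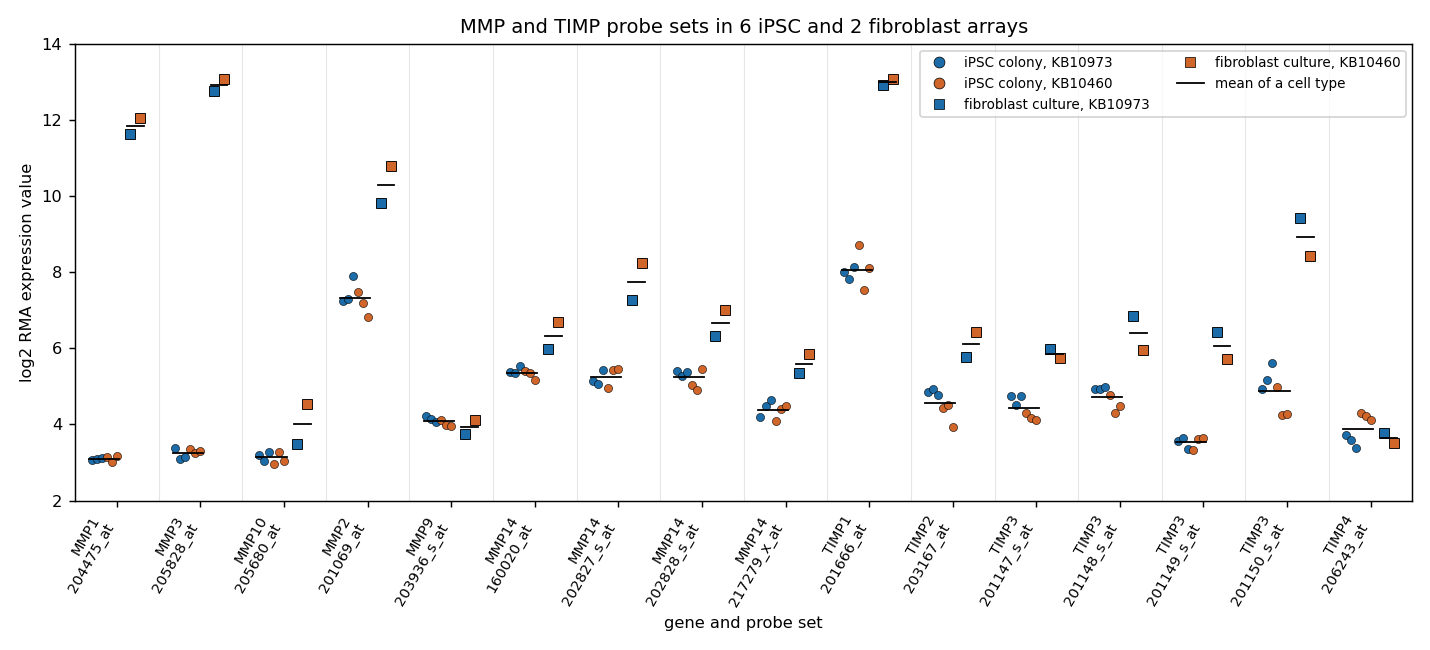
Log2 RMA value of each of the 16 MMP and TIMP probe sets (vertical axis) in 6 iPSC colonies (circles) and 2 fibroblast cultures (squares), coloured by donor, with the mean of each cell type as a line. MMP1 and MMP3 sat between 3.01 and 3.37 in every colony and above 11.6 in both fibroblast cultures, while the cell types overlapped for MMP9 and TIMP4.

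The widest gaps were those of the collagenase MMP1 and the stromelysin MMP3. MMP3 (205828_at), which degrades proteoglycans and activates procollagenase, had a lowest, median and highest level of 3.08, 3.27 and 3.37 in the 6 colonies, against 12.76 in KB10973 fibroblasts and 13.09 in KB10460 fibroblasts. It averaged 3.25 ± 0.12 in iPSCs (SD, n = 6) and 12.92 ± 0.23 in fibroblasts (SD, n = 2). The difference was -9.67 (SE 0.11, 95% interval -9.93 to -9.41, adjusted p = 1.3e-10), an 816-fold lower value, and it was the deepest fall of the 16. MMP1 (204475_at), which makes the first cut in fibrillar collagen, had levels of 3.01, 3.10 and 3.17 (lowest, median, highest) in the colonies, against 11.64 in KB10973 fibroblasts and 12.07 in KB10460 fibroblasts. Its difference was -8.75 (SE 0.11, adjusted p = 1.7e-10), or 432-fold. Every colony was below the array medians for both genes, so both folds may be understated. The SD over the 6 colonies was 0.06 for MMP1 and 0.12 for MMP3, at the 6.49th and 41.7th percentile of all probe sets, whose median SD was 0.13.

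The third enzyme of this kind, MMP10 or stromelysin 2 (205680_at), had a small difference. Its lowest, median and highest levels in the colonies were 2.95, 3.12 and 3.28, against 3.49 in KB10973 fibroblasts and 4.54 in KB10460 fibroblasts. The difference was -0.88 (SE 0.23, 95% interval -1.40 to -0.36, adjusted p = 0.0177). This call rested on 1 culture. Without the KB10460 fibroblasts the difference was -0.35 (adjusted p = 0.137, limma), and without the KB10973 fibroblasts it was -1.41 (adjusted p = 1.29e-04).

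MMP1, MMP3 and MMP10 are neighbours in the genome. In the RefSeq annotation of the orangutan genome (NHGRI_mPonAbe1-v2.0), taken for gene order only, 9 MMP genes follow each other with no other protein-coding gene between them: MMP7, MMP20, MMP27, MMP8, MMP10, MMP1, MMP3, MMP12 and MMP13. All 9 were on the array. In iPSCs 5 of them were lower, 0 were higher and 4 did not pass the test, against 11.5% of 11963 genes lower and 15.2% higher when 1 probe set per gene was taken. Of the 5, MMP10 and MMP27 lost their calls without the KB10460 fibroblasts. The high fibroblast levels belonged to 3 genes in a row, MMP1, MMP3 and MMP12.

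MMP12, the elastase of macrophages, had the third wide gap of the run. Its lowest, median and highest levels in the colonies were 2.79, 2.85 and 4.24, against 8.32 in KB10973 fibroblasts and 10.98 in KB10460 fibroblasts. The difference was -6.53 (SE 0.62, adjusted p = 5.1e-05). Colony 3 of KB10973 held the value of 4.24, and the next colony was at 3.20. Of the macrophage markers, CD14 had 5.42 in KB10973 fibroblasts and 7.99 in KB10460 fibroblasts, CD163 had 4.51 in KB10973 fibroblasts and 4.45 in KB10460 fibroblasts, and the leukocyte gene PTPRC was at 3.26 in KB10973 fibroblasts and 3.33 in KB10460 fibroblasts. The mean level of the 3 measured macrophage markers was 3.05 to 3.36 in iPSC arrays and 4.40 to 5.26 in fibroblast arrays. The part of such cells in the MMP12 level was not tested.

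The other genes of the run were low in both cell types. MMP27 differed by -0.90 (SE 0.15, adjusted p = 0.0015), with 3.76 in KB10973 fibroblasts and 4.42 in KB10460 fibroblasts, and by -0.58 without the KB10460 fibroblasts, under the fold threshold. Collagenase 3, MMP13, was at 3.12 in KB10973 fibroblasts and 3.96 in KB10460 fibroblasts, and its difference of -0.47 did not pass the test (adjusted p = 0.155). The differences of MMP7 (-0.15), MMP8 (-0.16) and MMP20 (-0.02) did not pass either.

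**Figure D2:**
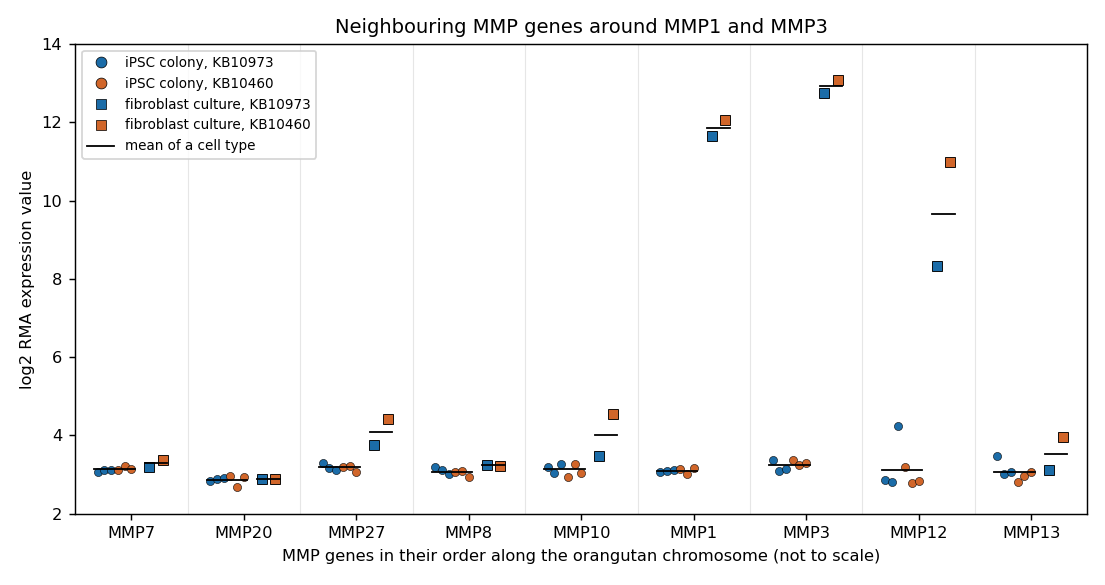
Log2 RMA values (vertical axis) of the 9 neighbouring MMP genes in their order along the orangutan chromosome, which is not drawn to scale, in 6 iPSC colonies (circles) and 2 fibroblast cultures (squares), with the mean of each cell type as a line. MMP1, MMP3 and MMP12 were above 8 in both fibroblast cultures, and every other gene stayed below 5 in both cell types.

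Of the 2 gelatinases, MMP2 passed the test and MMP9 did not. MMP2, gelatinase A (201069_at), was lower in iPSCs but kept a level well above the array medians there. Its lowest, median and highest levels in the colonies were 6.82, 7.26 and 7.91, against 9.82 in KB10973 fibroblasts and 10.79 in KB10460 fibroblasts. It averaged 7.32 ± 0.36 in iPSCs (SD, n = 6) and 10.30 ± 0.68 in fibroblasts (SD, n = 2), a difference of -2.98 (SE 0.29, 95% interval -3.65 to -2.31, adjusted p = 6.2e-05) or 7.89-fold. The cell types did not overlap, and the colonies spanned more than 1 log2 unit, with colony 3 of KB10973 highest and colony 3 of KB10460 lowest.

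MMP9, gelatinase B (203936_s_at), which neutrophils and macrophages release, had levels of 3.95, 4.09 and 4.22 (lowest, median, highest) in the colonies, against 3.75 in KB10973 fibroblasts and 4.11 in KB10460 fibroblasts, so the cell types overlapped. The difference was 0.15 (SE 0.11, 95% interval -0.10 to 0.41, adjusted p = 0.378). All 8 values lay close to the array medians.

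MMP14, the membrane type MMP that activates pro-MMP2 at the cell surface, was lower in iPSCs at all 4 of its probe sets. The deepest fall was at 202827_s_at, where the lowest, median and highest colonies had 4.96, 5.28 and 5.45, against 7.26 in KB10973 fibroblasts and 8.25 in KB10460 fibroblasts. There the difference was -2.51 (SE 0.24, adjusted p = 5.2e-05), or 5.70-fold. The other 3 probe sets differed by -1.42 (202828_s_at, SE 0.20, adjusted p = 5.8e-04), -1.22 (217279_x_at, SE 0.17, adjusted p = 6.0e-04) and -0.97 (160020_at, SE 0.17, adjusted p = 0.0018). All 4 probe sets had every colony below both fibroblast cultures. The call of 160020_at was lost with the colonies averaged within donor (adjusted p = 0.0881) and at a fold over 2, and its difference was -0.62 without the KB10460 fibroblasts (adjusted p = 0.009). The ending s_at marks probes shared by several transcripts and x_at probes that may also bind related ones. The probes were designed on human sequence, and their mismatches to orangutan transcripts were not counted here.

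Among the inhibitors TIMP1 had the deepest fall. TIMP1 (201666_at), a soluble inhibitor that also binds pro-MMP9, had 7.52, 8.05 and 8.71 (lowest, median, highest) in the colonies, against 12.91 in KB10973 fibroblasts and 13.09 in KB10460 fibroblasts. It averaged 8.05 ± 0.39 in iPSCs (SD, n = 6) and 13.00 ± 0.13 in fibroblasts (SD, n = 2). The difference was -4.95 (SE 0.25, 95% interval -5.52 to -4.38, adjusted p = 9.2e-07), a 30.9-fold lower value. Like MMP2, it stayed well above the array medians in every colony. The highest and the lowest colony were both of KB10460, colonies 1 and 2, and differed by 1.19.

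TIMP2, which blocks MMP2 and also joins it to MMP14 for activation, had a smaller difference. At 203167_at the lowest, median and highest colonies had 3.95, 4.64 and 4.93, against 5.77 in KB10973 fibroblasts and 6.44 in KB10460 fibroblasts. The difference was -1.54 (SE 0.27, 95% interval -2.14 to -0.93, adjusted p = 0.0019), or 2.90-fold. No colony overlapped the fibroblasts.

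TIMP3, which is bound to the matrix and also inhibits ADAM and ADAMTS proteases, was lower in iPSCs at its 4 probe sets. At 201150_s_at, the probe set with the deepest fall, the lowest, median and highest colonies had 4.25, 4.96 and 5.60, against 9.42 in KB10973 fibroblasts and 8.42 in KB10460 fibroblasts. The difference was -4.05 (SE 0.38, 95% interval -4.92 to -3.19, adjusted p = 4.6e-05), or 16.6-fold. The others differed by -2.54 (201149_s_at, adjusted p = 6.1e-06), -1.67 (201148_s_at, adjusted p = 7.9e-04) and -1.42 (201147_s_at, adjusted p = 3.8e-04). No colony overlapped the fibroblasts at any of the 4. TIMP4 (206243_at), the inhibitor with the narrowest tissue range, did not pass the test. Its levels were 3.39, 3.91 and 4.30 (lowest, median, highest) in the colonies, against 3.77 in KB10973 fibroblasts and 3.51 in KB10460 fibroblasts, a difference of 0.25 (SE 0.24, 95% interval -0.30 to 0.79, adjusted p = 0.523). The colonies lay on both sides of the fibroblasts.

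**Figure D3:**
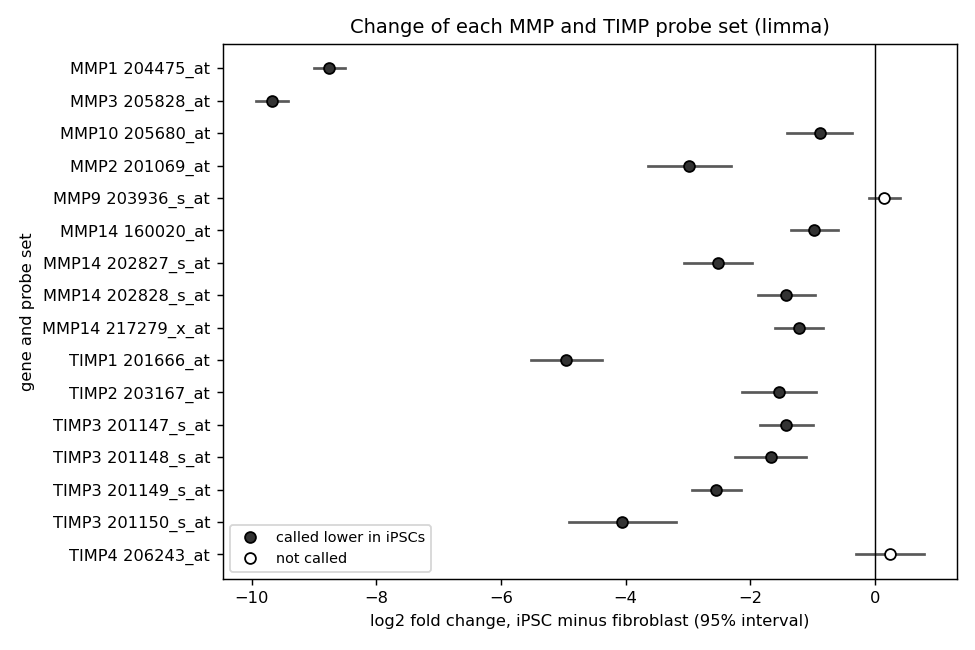
Log2 fold change, iPSC minus fibroblast, of each MMP and TIMP probe set with its 95% interval from limma (horizontal axis), 6 iPSC against 2 fibroblast arrays, with filled points where the probe set was called lower in iPSCs. The differences ran from -9.67 for MMP3 to 0.25 for TIMP4, and the intervals of MMP9 and TIMP4 alone include 0.

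At all 14 called probe sets every colony lay below both fibroblast cultures, so a fall within each donor follows from that and adds no support. Within KB10973, whose colonies were set against the fibroblasts of the same animal, the differences ran from -9.56 for MMP3 to -0.32 for MMP10 on the log2 scale. Within KB10460 they ran from -9.79 for MMP3 to -1.38 for MMP14 at 160020_at. The fall was larger in KB10460 for 11 of the 14 and larger in KB10973 for 3, all of TIMP3. The share over all probe sets was not taken. Each change is set against 1 fibroblast culture, so the count also carries the difference between the fibroblast cultures given below. MMP2, for example, changed by -2.34 in KB10973 and -3.62 in KB10460, and TIMP3 at 201150_s_at by -4.19 in KB10973 and -3.92 in KB10460.

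A test of the difference between these changes called 1 of the 16 probe sets, against 2.91% of all probe sets. This was MMP10, which changed by -0.32 in KB10973 and -1.45 in KB10460, a difference of 1.13 (SE 0.22, adjusted p = 0.044, limma). TIMP2 (1.23, adjusted p = 0.085), MMP14 at 160020_at (0.82, adjusted p = 0.076) and TIMP4 (-0.90, adjusted p = 0.080) did not pass. This test takes the single fibroblast culture of a donor to vary like a colony. The MMP10 call was lost when any 1 of KB10973 colonies 1 to 3 or KB10460 colony 3 was left out, with an adjusted p of 0.11, 0.0681, 0.0845 and 0.0929.

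The fibroblast cultures themselves, 1 of each donor and therefore with no test, were compared by their values. All 9 MMP probe sets had lower values in KB10973 fibroblasts than in KB10460 fibroblasts, as had TIMP1 and TIMP2, 11 of the 16 in all. The 4 TIMP3 probe sets and TIMP4 had higher values in KB10973 fibroblasts. Over the whole array 51.6% of probe sets were higher in KB10460 fibroblasts. The difference, KB10973 minus KB10460, was -1.06 for MMP10, -0.96 for MMP2, -0.98 to -0.52 for MMP14, -0.68 for TIMP2, -0.42 for MMP1, -0.35 for MMP9, -0.33 for MMP3 and -0.18 for TIMP1. It was 0.22 to 1.00 for TIMP3 and 0.26 for TIMP4. The median size of the difference was 0.68 over the 16 members and 0.17 over all probe sets. Among probe sets with a fibroblast mean over 5 it was 0.69 for 13 members and 0.31 for all 6418. Sex, age, culture and donor cannot be told apart here.

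Between the iPSCs of the donors no member passed the test. Of the 16 probe sets, 0 were called between the 3 KB10973 colonies and the 3 KB10460 colonies by limma, against 0.0898% of all probe sets, or 20 of 22277. At an unadjusted p under 0.05 there were 5 of the 16 and 2265 of all. These 5 were inhibitors, namely TIMP4, TIMP2 and 3 TIMP3 probe sets. Colonies did not overlap between donors at 4 of the 16 probe sets (TIMP4, TIMP2 and TIMP3 at 201147_s_at and 201148_s_at), against 14.7% of all probe sets.

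TIMP4 had 3.72, 3.59 and 3.39 in KB10973 colonies 1 to 3, against 4.30, 4.22 and 4.11 in KB10460 colonies 1 to 3. All KB10973 colonies were below all KB10460 colonies. The difference was -0.64 (SE 0.11, 95% interval -0.89 to -0.39, adjusted p = 0.091). TIMP2 had 4.84, 4.93 and 4.77 in KB10973 colonies 1 to 3, against 4.42, 4.51 and 3.95 in KB10460 colonies 1 to 3, a difference of 0.55 (SE 0.15, 95% interval 0.21 to 0.90, adjusted p = 0.267). In both genes the colonies ran opposite to the fibroblasts of the same donors. TIMP3 at 201147_s_at averaged 4.68 ± 0.14 in KB10973 colonies and 4.20 ± 0.09 in KB10460 colonies (SD, n = 3 each; adjusted p = 0.166), the same direction as in the fibroblasts. For the MMPs and TIMP1 the colonies overlapped. The difference was -0.01 for MMP1 (95% interval -0.20 to 0.17), -0.10 for MMP3 (95% interval -0.32 to 0.13) and -0.12 for TIMP1 (95% interval -0.74 to 0.51). The TIMP1 interval is the widest of these 3, and the KB10460 colonies were spread from 7.52 to 8.71.

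**Figure D4:**
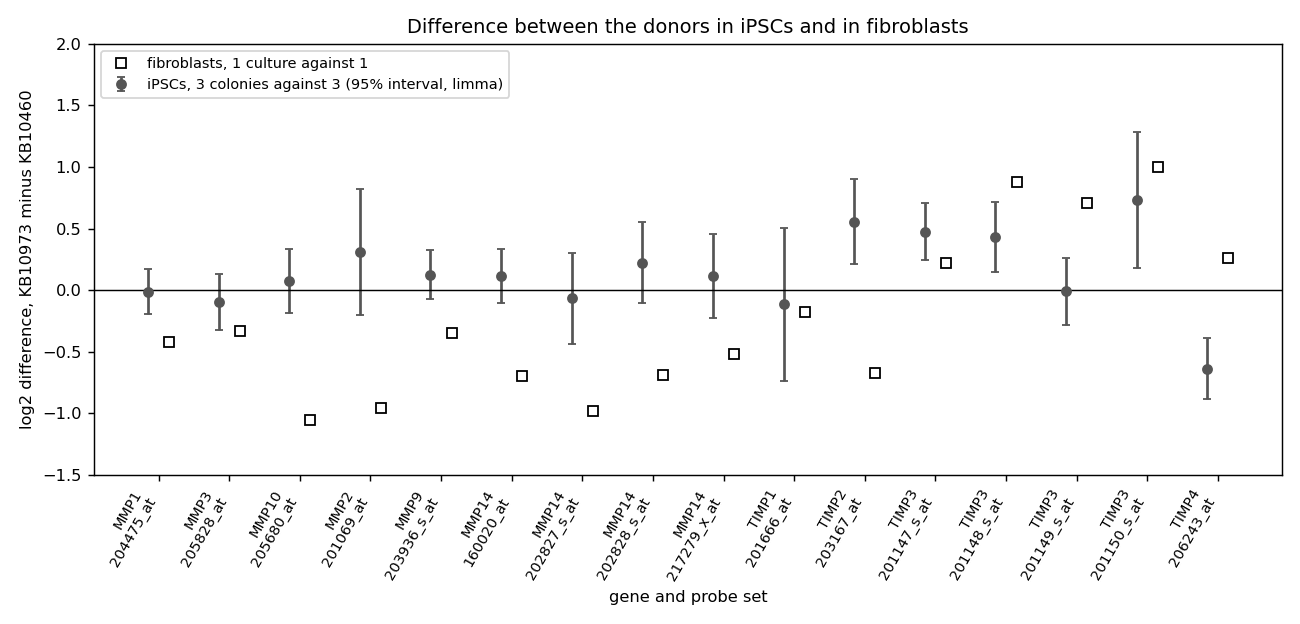
Log2 difference between donors, KB10973 minus KB10460 (vertical axis), of each MMP and TIMP probe set in iPSCs (filled circles, 3 colonies against 3, with the 95% interval from limma) and in fibroblasts (open squares, 1 culture against 1, with no error). In fibroblasts the 9 MMP probe sets were below 0 and the 4 TIMP3 probe sets above it, and in iPSCs no member was called.

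Members differed in how far the colonies were apart. The SD over the 6 colonies was 0.53 for TIMP3 at 201150_s_at, 0.39 for TIMP1, 0.37 for TIMP4, 0.36 for TIMP2 and 0.36 for MMP2. These SDs lay between the 94.8th and 98.4th percentile of all probe sets, which were not matched for level. They pool the donors, so a donor difference adds to them. Within KB10973 and KB10460 the SDs were 0.16 and 0.10 for TIMP4, and 0.08 and 0.30 for TIMP2. They were 0.34 and 0.42 for TIMP3 at 201150_s_at, 0.16 and 0.59 for TIMP1, and 0.38 and 0.33 for MMP2. MMP1 and MMP3 had SDs of 0.06 and 0.12 at levels below the array medians, and MMP9 had an SD of 0.10 close to them. Of the 12 fibroblast markers some varied among the colonies and most varied less. The SD over the 6 colonies was 0.88 for PDGFRA, 0.55 for COL1A2, 0.55 for COL3A1 and 0.42 for COL1A1. For the rest of the list it ran from 0.03 (DCN) to 0.26 (FBN1). The part of residual fibroblast or differentiated cells in the spread of the members was not tested.

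The genes most like MMP3 and TIMP1 over the 8 arrays were found by Pearson's r among 11962 other genes, 1 probe set each. For MMP3 they were NR4A3, an orphan nuclear receptor (r = 0.99973), MMP1 (r = 0.99971) and DCN, the matrix proteoglycan decorin (r = 0.99949). For TIMP1 they were ACSL4, a fatty acid CoA ligase (r = 0.9971), SRPX2 (r = 0.99621) and KANK2 (r = 0.99542). The 8 points fall into the 2 cell types, so r mostly records that gap, and 148 genes for MMP3 and 35 for TIMP1 had r over 0.99. The likeness is a description of these arrays.

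Other genes around this system were taken as lists, with 1 probe set per gene. Most other MMPs did not pass the test. Of 15 measured, 2 were lower in iPSCs (MMP12 and MMP27), 1 was higher and 12 were not called, against 11.5% of all genes lower and 15.2% higher. The median difference was -0.03, and that over all genes was -0.00393. The higher one was MMP25, a membrane type MMP of leukocytes, with a difference of 0.59 (SE 0.13, adjusted p = 0.0070), a fold of 1.5018 that barely passed the threshold of 1.5. It lost the call without the KB10460 fibroblasts or without KB10973 colony 1 (0.40 and 0.53), and its second probe set differed by -0.16 (adjusted p = 0.221). Of 17 measured ADAM and ADAMTS proteases, relatives of the MMPs that shed surface proteins or cut proteoglycans, 3 were lower, 1 was higher and 13 did not pass, against the same 11.5% lower and 15.2% higher. ADAM9 fell by 3.11, ADAM8 by 0.91 and ADAM10 by 0.70 on the log2 scale, while ADAM19 rose by 1.65. The ADAM8 call was lost without any 1 of the 6 colonies (adjusted p = 0.0685 to 0.081, limma) and without the KB10460 fibroblasts, where the difference was -0.17. Without the KB10973 fibroblasts it was -1.66.

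Of 21 genes that activate or restrain MMPs, 12 were lower in iPSCs, 1 was higher and 8 did not pass, with a median of -0.65, where 11.5% of all genes were lower and 15.2% higher. Without 1 array, PLAT, A2M, LRP1 and FURIN lost their calls among the 12, each of them without the KB10460 fibroblasts, PLAT also without the KB10973 fibroblasts or any KB10973 colony, and FURIN also without KB10460 colony 2. A2M, an inhibitor in plasma, moved the most of these, with differences of -1.26 in all arrays, -0.54 with the KB10460 fibroblasts left out and -1.98 with the KB10973 fibroblasts left out. TFPI2, a matrix inhibitor of serine proteases, was at 6.11 to 7.28 in the 6 colonies, against 12.36 in KB10973 fibroblasts and 12.92 in KB10460 fibroblasts. The matrix glycoproteins THBS2 and THBS1 differed by -5.69 and -5.22, and TGM2, which cross-links matrix proteins, by -4.12. RECK, a membrane-anchored inhibitor of MMPs, and PLAUR, the urokinase receptor, were among the others, at -2.53 and -2.30. The higher gene was BSG or basigin, known as an inducer of MMPs, at 0.66 (adjusted p = 0.0019). These last 3 were chosen after their values were seen. The list holds members of opposite function, so its median does not stand for activation or restraint.

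**Figure D5:**
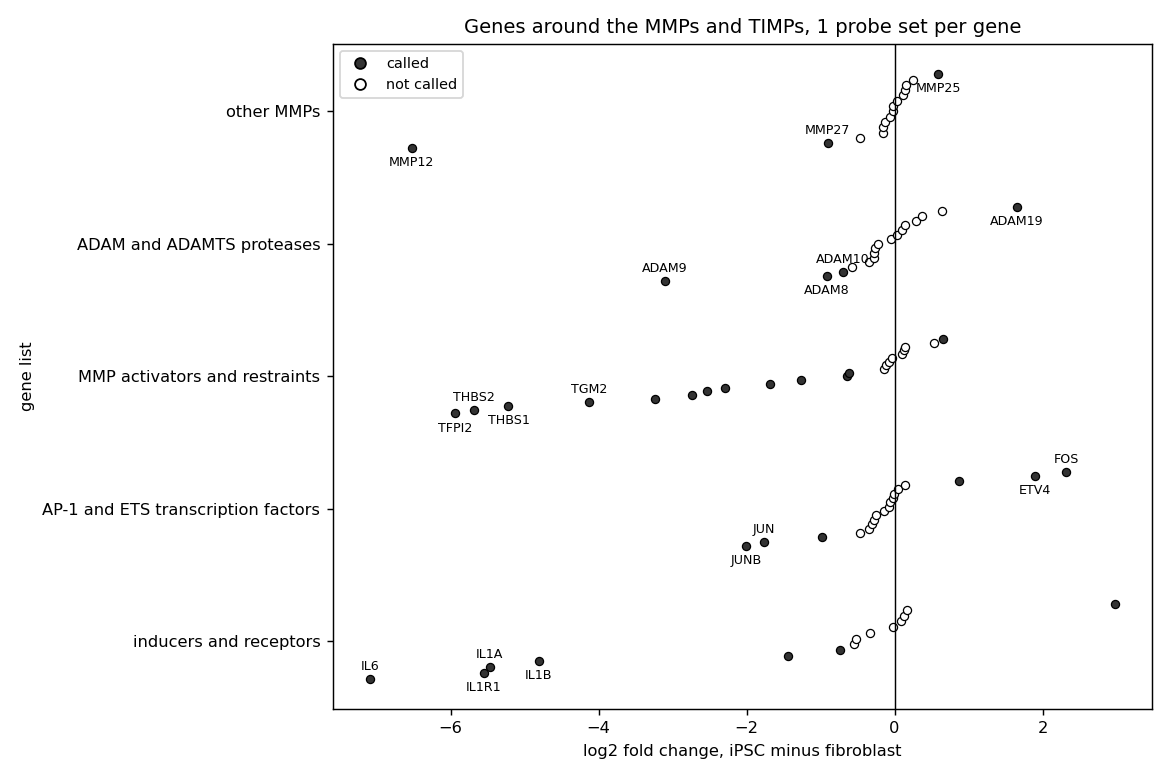
Log2 fold change, iPSC minus fibroblast (horizontal axis), of the genes of 5 lists around the MMPs and TIMPs, 1 probe set per gene, filled where called, with names for the 4 called genes of the widest change in each list. Beyond MMP12, the falls past 4 on the log2 scale belonged to TFPI2, THBS2, THBS1 and TGM2 and to IL6, IL1R1, IL1A and IL1B.

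AP-1 and ETS factors are transcription factors known to act on MMP promoters. RUNX2, a factor of another family, was listed with them and is counted here. Of 18 measured, 3 were higher in iPSCs, 3 were lower and 12 did not pass the test, close to the 15.2% higher and 11.5% lower over all genes, with a median of -0.10. FOS was higher by 2.32 (SE 0.66, adjusted p = 0.026), ETV4 by 1.89 (SE 0.14, adjusted p = 1.16e-05), and JUNB and JUN differed by -2.01 and -1.77. The remaining called genes, named after their values were seen, were ATF3 (0.87) and FOSL1 (-0.98). FOS ranged from 5.67 to 8.18 among the 6 colonies, against 3.75 in KB10973 fibroblasts and 4.82 in KB10460 fibroblasts. Without the KB10973 fibroblasts FOS (1.79, adjusted p = 0.182) and ATF3 (0.67, adjusted p = 0.104) lost their calls.

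The last list held 14 cytokines, growth factors and receptors around the induction of MMPs. Of these 6 were lower in iPSCs, 1 was higher and 7 did not pass, with a median of -0.53. Over all genes 11.5% were lower and 15.2% higher. The list includes IL1RN, the antagonist of the interleukin 1 receptor, so its median does not stand for induction. Interleukin 6 (IL6) was at 3.38 to 3.62 in the 6 colonies, against 9.70 in KB10973 fibroblasts and 11.42 in KB10460 fibroblasts. IL1B was at 3.28 to 3.68 in the colonies, against 7.18 in KB10973 fibroblasts and 9.50 in KB10460 fibroblasts, and IL1A at 3.33 to 3.53 in the colonies, against 8.40 in KB10973 fibroblasts and 9.39 in KB10460 fibroblasts. All 3 interleukins were lower in KB10973 fibroblasts than in KB10460 fibroblasts, as the 9 MMP probe sets were. IL1R1, the receptor of IL1A and IL1B, differed by -5.55 between the cell types (adjusted p = 8.6e-09, limma). Its fibroblast levels ran the other way, with 8.77 in KB10973 and 8.34 in KB10460. The 1 higher gene was PDGFA at 2.98, named after its value was seen. No relation between these cytokines and the MMPs was tested.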

How the data were processed

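Total RNA of 6 iPSC and 2 fibroblast cultures was labelled with biotin and hybridised to human Affymetrix arrays, 1 array per culture. The authors processed the arrays with RMA in WebArray (version not given in the sources used here) and deposited log2 values for 22277 probe sets. RMA subtracts background, makes the array distributions equal and summarises probes, so a change shared by most transcripts would be removed. Of the probe sets, 19070 had 1 gene symbol, 1043 several and 2164 none. All value columns had a sample (0 left over). Depth does not apply to arrays, and their number limits the precision.

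From the deposited log2 values limma 3.58.1 (lmFit and eBayes, R 4.3.3) was fitted 3 times, to the 8 arrays by cell type without a donor term, to the 6 iPSC arrays by donor, and to 4 groups (cell type by donor) for the difference of the change. Tests were two-sided with Benjamini-Hochberg adjustment over all probe sets. A call needed a fold change over 1.5 with an adjusted p under 0.05. With 1 probe set per gene, that of the highest mean was taken. The members and lists were chosen with earlier results of these data known. Named were all members, the 4 called genes of each list with the largest change, and the 3 genes most alike MMP3 and TIMP1. Symbols were matched to NHGRI_mPonAbe1-v2.0 for gene order.

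Fibroblasts and colonies of a donor share an animal, so the donor pairs them. The correlation of donor differences between fibroblasts and iPSCs was 0.018 across probe sets. Arrays of different iPSC colonies, of both donors, correlated at 0.9856 to 0.9944. The fibroblast arrays of the 2 donors correlated at 0.9732, and arrays of different cell types at 0.8425 to 0.8845. Alternatives changed the normalization, filter, variance prior, weights, adjustment, fold, block and arrays. Scripts were tested on simulated data.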

Additional observations from a re-analysis of the deposited data

Results flagged for a closer look

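The change of MMP10 (205680_at), iPSC minus fibroblast, differed between the donors by 1.13 on the log2 scale in limma (adjusted p = 0.044), the single call among 16 member probe sets. Each donor has 1 fibroblast culture, so this p holds no spread between fibroblast cultures. It rests on the spread of the colonies, which eBayes moderates with that of all probe sets. The call was lost without any 1 of KB10973 colonies 1 to 3 or without KB10460 colony 3, where the difference was 1.07 to 1.20. The KB10973 colonies had 3.19, 3.04 and 3.28 and the KB10460 colonies 2.95, 3.28 and 3.05, against 3.49 in KB10973 fibroblasts and 4.54 in KB10460 fibroblasts. The colonies of the donors overlapped, and the KB10460 fibroblast culture stood above the other 7 arrays. All of these levels but that one were below the array medians of 3.74 to 3.82.

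Single colonies stood apart from the other 5 at 4 of 53 probe sets examined, by a gap to the nearest colony that passed the critical value of Dixon's test at 95%. Chance alone places about 1 in 20 groups past this limit. None was a member. MMP12 was at 4.24 in KB10973 colony 3, with the next colony at 3.20. MMP25 was at 5.52 in KB10973 colony 1, with the next at 5.23. TGM2 was at 3.76 in KB10973 colony 2, with the next at 3.47. RECK was at 4.41 in KB10460 colony 2, with the next at 3.87. These colonies were of 4 different cultures.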

How the results depend on the processing

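The count of 14 members was also obtained under median centring, arrayWeights, cyclic loess, and eBayes with trend and robust. It was 13 with the filter on low values and Benjamini-Yekutieli adjustment, 12 with colonies averaged or a fold over 2, and 13 to 14 with an array left out. With the donor as a replicate block 14 members and 4952 probe sets were called. In the settings applied to single probe sets, 273 results kept direction and call, 6 lost a call and 1 moved, and no called value changed sign. MMP10 lost its call with colonies averaged within donor (adjusted p = 0.228), Benjamini-Yekutieli adjustment (0.187), a fold over 2, and without the KB10460 fibroblasts. MMP14 at 160020_at lost its call with colonies averaged (adjusted p = 0.0881) and a fold over 2. With colonies averaged within donor, TIMP2 (adjusted p = 0.0476, limma) and TIMP3 at 201148_s_at (0.0495) passed narrowly. There the adjusted p was 3.26e-04 for MMP3 and 3.43e-04 for MMP1, far larger than in the main test. Of 33 called genes of the lists, 9 lost the call without 1 array, an alternative chosen after seeing the data. MMP9, never called, was at -0.02 without the KB10973 fibroblasts. Over all probe sets, 4850 were called, 3061 at a fold over 2, and 3217 with 1 probe set per gene, where 8 members were called because fewer probe sets were tested.

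Between donors in iPSCs, 0 members were called with colony number as a replicate block, which shares only a number, and with any colony left out. eBayes with trend and robust called 1, TIMP4 (adjusted p = 0.048), and the cause was not tested. For the difference of the change, 0 members were called among probe sets with a mean over 4, which leaves MMP10 out, and 0 to 2 with a colony left out. Without KB10460 colony 3 these were MMP14 at 202828_s_at and TIMP2 (adjusted p = 0.0415 and 0.042). In iPSCs MMP1, MMP3 and MMP10 lay below the array medians, and MMP9 and TIMP4 lay close to them. At such levels signal over background limits what can be told.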
